A study of Mus musculus with 8 samples.

Results

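The comparison described here asks in which genes mouse neutrophils of the peripheral blood (PB) answered lipopolysaccharide (LPS) otherwise than neutrophils of the bone marrow (BM). For each gene it is the LPS effect in PB minus the LPS effect in BM, that is (PB LPS minus PB PBS) minus (BM LPS minus BM PBS) on the log2 scale. A value above 0 means a larger rise or a smaller fall in PB. The groups are PBS-primed and LPS-primed PB neutrophils and PBS-primed and LPS-primed BM neutrophils of adult male C57BL/6J mice. LPS was given at 0.5 mg/kg intraperitoneally and cells were collected at 4 h, the labels giving 0 h for the PBS groups and the methods the same interval after PBS. Cells were enriched with a neutrophil kit that removes other leukocytes, picked singly by mouth pipette and sequenced by SCRB-seq, a plate method that tags each cDNA with a cell barcode and a unique molecular identifier (UMI). The UMIs of 1421 cells were summed into 16 plates: 4 of PBS-primed PB neutrophils (348 cells), 4 of LPS-primed PB neutrophils (363 cells), 5 of PBS-primed BM neutrophils (439 cells) and 3 of LPS-primed BM neutrophils (271 cells). Of these plates 8 match the labelled samples (batch 7) and 8 belong to batch 6, where the names give the group and not the sample. All 16 plates and all 1421 cells of the series enter the comparison. The table held 10970 genes. After filters 8845 were tested, and 334 of them (3.78%) were called for the difference, at an adjusted p under 0.05.

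Neutrophils mature in the marrow and load their granules in a fixed order, with lactoferrin, cathelicidin, neutrophilic granule protein and lipocalin made late in that course and packed into secondary (specific) granules. Released cells circulate for hours, and their granule transcripts normally decline as they leave the marrow. LPS, a cell wall component of Gram-negative bacteria, is read by TLR4, which signals through MyD88 to NF-kB and through TRIF to interferon regulatory factors, so that type I interferon follows and switches on antiviral and antigen presentation genes. NF-kB targets include the inhibitors that end the signal.

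The plates held 83 to 95 cells and 3240559 to 12020616 UMIs each, with the lowest totals in the PBS-primed PB plates (3240559 to 5330582), and the median UMI number per cell of a plate ran from 32295 to 117374. Neutrophil markers were detected in every group (13 of 13). Their summed level was 123564 to 184576 CPM (UMIs scaled to a common plate total of 1000000) in the PBS-primed PB plates, 285148 to 386572 in the LPS-primed PB plates, 367128 to 413290 in the PBS-primed BM plates and 344660 to 382893 in the LPS-primed BM plates. Genes of other cell types took 0.513% to 0.832% of UMIs in the PBS-primed PB plates and 0.2% to 0.342% in the rest. Nothing says that plates came from separate animals, so p-values measure the spread between plates. Levels below are CPM of the plate total, whereas differences and effects are log2 values after TMM scaling, which corrects for a few very abundant genes. With scaling by the total alone the median difference over all tested genes moved from -0.15 to -1.21 and the split of calls from 258 above and 76 below 0 to 104 above and 536 below, so every statement of direction is relative to the typical gene.

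LPS moved many more genes in PB than in BM, and most called differences were rises in PB without a called change in BM. In PB 923 genes (10.4%) were called, 621 up and 302 down, against 35 (0.396%) in BM, 29 up and 6 down (0.0678%). Of the 334 genes called for the difference, 258 lay above 0 (2.92% of those tested) and 76 below 0 (0.859%). By their calls in each tissue, 246 rose in PB alone, 42 fell in PB alone, 3 fell in BM alone, 1 rose in BM alone, 4 rose in both, 1 moved in opposite directions and 37 were called in neither. Without the labelled LPS-primed BM sample 1 the difference had 188 calls (162 above and 26 below 0) and without sample 2 of that group 207, and without its batch 6 plate 20 genes were called in BM.

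Many genes above 0 showed one of 2 arrangements of the plates. Both were defined after the values were seen and use the plates that gave the calls. Their counts are therefore a description and not a test. In 104 of the 258 genes every LPS-primed PB plate was above every other plate, which held in 221 (2.5%) of all tested genes. In 81 of the 258 every BM plate, with or without LPS, was above every PBS-primed PB plate (231 genes, 2.61%, of all tested), and in 48 of these 81 the LPS-primed PB mean stayed under both BM means. Cxcl10 and Nfkbia are of the first kind, Ltf and Ngp of the second, 8 genes showed both and 81 neither. A summed plate cannot tell more positive cells from more RNA per cell, so the share of positive cells is given for a few genes.

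**Figure D1:**
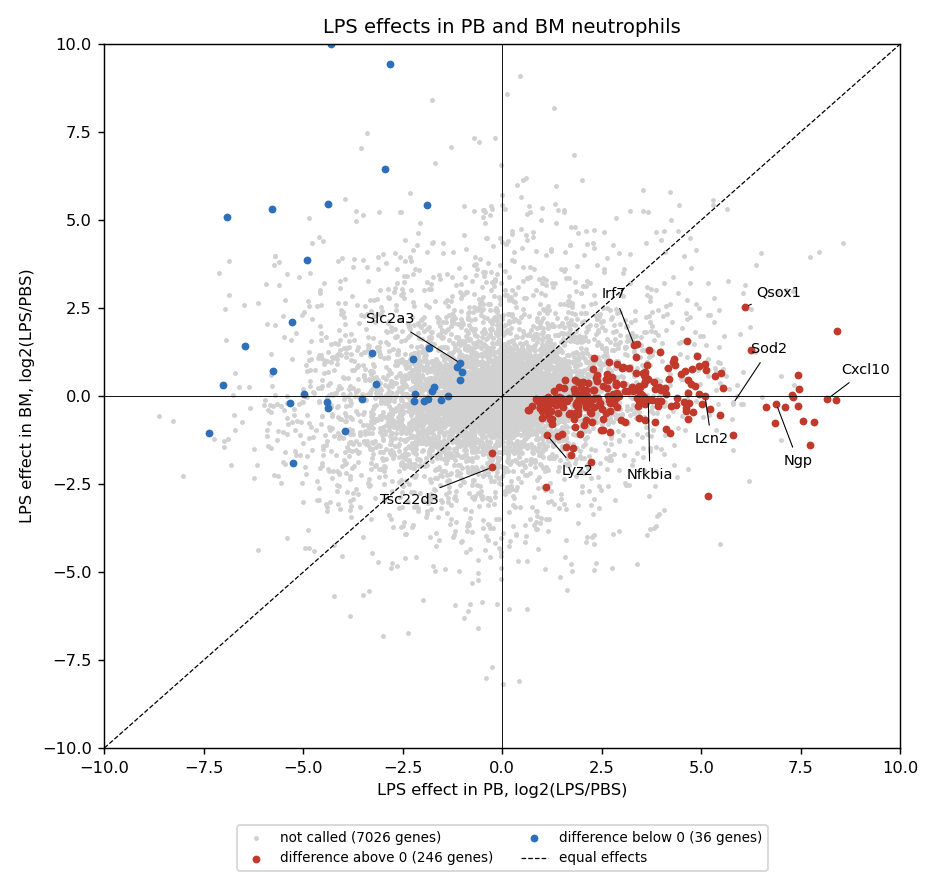
LPS effect in PB (horizontal axis, log2 of LPS over PBS) against the LPS effect in BM (vertical axis, same unit) for 7308 genes, 1 point each, after leaving out 1537 genes with at most 3 UMIs in some group; 1 called gene lies outside the axes. Most of the 246 genes called above 0 (red) lie to the right near the horizontal zero line, the 36 called below 0 (blue) lie mostly to the left, and points on the dashed line would have equal effects.

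Antiviral interferon-stimulated genes gave the most called members of any list. Of 39 tested antiviral members 34 rose in PB and 1 rose in BM (14 at an unadjusted p under 0.05, 7 by DESeq2), and 16 were called for the difference, all above 0, with a list median of 2.83 against -0.15 for all genes. The 16 were Ifitm2, Ifitm3, Ifitm6, Cmpk2, Slfn4, Samd9l, Oasl1, Oas2, Oas3, Rsad2, Ddx58, Dhx58, Zbp1, Isg20, Ifit2 and Ifit3b, among them membrane blockers of viral entry, makers of oligoadenylate and cytosolic RNA sensors. Scaling by the total alone left 7 calls above and 1 below 0.

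Ifitm3, a transmembrane protein that blocks fusion of enveloped viruses, was at 1199 to 2204 CPM in PBS-primed and 6679.9 to 10454 CPM in LPS-primed PB plates, and at 1059.7 to 2585 and 1437 to 2624 CPM in PBS- and LPS-primed BM plates. All 4 LPS-primed PB plates stood above the other 12, and the BM groups overlapped. The difference was 3.24 (SE 0.28, adjusted p = 2.35e-10), with an effect of 3.42 in PB and 0.18 in BM. Cmpk2, a mitochondrial nucleotide kinase, was at 715 to 1003 CPM in LPS-primed PB plates and at no more than 216 CPM elsewhere, a difference of 3.16 (SE 0.42, adjusted p = 2.71e-06).

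Ifitm6 had another baseline. It was at 168 to 439 CPM in PBS-primed PB plates and rose to 1839 to 2835 CPM with LPS, but stood at 2231 to 3069 CPM in PBS-primed and 4297 to 6191 CPM in LPS-primed BM plates. The LPS-primed PB plates thus reached the lower part of the BM range, and the difference was 3.37 (SE 0.37, adjusted p = 3.57e-07).

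Ifit2, another of the antiviral members called, was at 486 and 655 CPM in the labelled LPS-primed PB samples and 543 and 447 CPM in the batch 6 plates of that group. It was at 17.5 and 2.47 CPM in the labelled PBS-primed PB samples (3.06 and 2.25 in batch 6). The BM values were 0.86 and 13.2 CPM in the labelled PBS-primed BM samples (30.1, 10.6 and 1.28 in batch 6) and 2.32 and 25 CPM in the labelled LPS-primed BM samples (7.02 in batch 6). The LPS-primed PB plates were far above all others, which scattered at low levels. The difference of 7.70 (SE 1.84) passed narrowly, at adjusted p = 0.0436, and held in 11 of 29 alternatives, whose adjusted p ranged from 2.83e-08 to 0.365.

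The interferon-inducible GTPases, which attack vacuoles holding microbes, gave 3 calls above 0 among 11 tested members, with 6 rises in PB and 2 in BM and a list median of 1.44. Gbp5 was listed at 42.7 to 114 CPM in LPS-primed PB plates and at 0 to 0.439 CPM in all others, with 4, 3 and 4 UMIs in all in the PBS-primed PB, PBS-primed BM and LPS-primed BM groups. No fold is given against such counts, and the adjusted p was 0.0119. Gbp2 went from 28 to 138 CPM up to 1558 to 1955 CPM in PB and stayed at 3.5 to 69.2 CPM in BM, a difference of 4.78 (SE 1.18, adjusted p = 0.0497, 0.000204 to 0.307 over alternatives, under 0.05 in 8 of 29). Igtp differed by 2.23 (SE 0.60, adjusted p = 0.0265).

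Among 18 interferon receptors, STATs and IRFs the difference was called above 0 for Irf7 and Usp18 and below 0 for Irf8. Usp18, which cleaves ISG15 from its targets and damps receptor signalling, was at 41.1 to 67.8 CPM in PBS-primed PB and 469 to 593 CPM in LPS-primed PB plates. It was at 18.2 to 54.7 CPM in PBS-primed BM and 22.4 to 82.7 CPM in LPS-primed BM plates, and differed by 3.33 (SE 0.55, adjusted p = 8.87e-05). Irf7, the factor that amplifies interferon output, rose in both tissues. It was at 182 and 202 CPM in the labelled PBS-primed PB samples (291 and 265 in batch 6) and at 1047 and 1035 CPM in the labelled LPS-primed PB samples (1487 and 1211 in batch 6). Its BM values were 20.5 and 40.5 CPM in the labelled PBS-primed samples (40.4, 63 and 84.2 in batch 6) and 134 and 76.2 CPM in the labelled LPS-primed samples (168 in batch 6). The plates of the PB groups did not overlap, those of the BM groups did, and the rise was 3.32 in PB and 1.44 in BM (adjusted p = 0.0031), a difference of 1.88 (SE 0.38, adjusted p = 0.00183), or 0.81 (adjusted p = 0.197) with scaling by the total alone.

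The promoters of some of these genes hold the letters of known response elements. A search of RefSeq promoters (GRCm38.p6, 250 bases before to 50 after the start) for the core of the interferon-stimulated response element (GAAA, any 2 bases, GAAA) and for an NF-kB site form (GGGA, any base, TTTCC), on both strands, found the first in 3.44% (1131) and the second in 0.411% (135) of 32851 promoters. A promoter could hold both, and matches of the first can overlap those of the second. By gene, 27 of 212 matched genes called above 0 (12.7%) and 1 of 58 called below 0 (1.72%) held the first, beside 300 of 7033 matched genes tested (4.27%). For the 16 antiviral members called, 13 had a promoter and 6 of these (46.2%) held it. A match is a description of letters and not of binding. Each line gives the stretch around a match, along the gene's strand and with the match in capitals. The lines show chemokine, interferon-induced GTPase, class I and NF-kB feedback genes described here and are not every match, since Cybb, Ifitm3 and, among named genes below 0, Tgfbi also held the first form.
Cxcl10 (chr5:92349073-92349122, minus strand): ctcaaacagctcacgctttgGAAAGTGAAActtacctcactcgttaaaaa
Gbp2 (chr3:142620584-142620633, plus strand): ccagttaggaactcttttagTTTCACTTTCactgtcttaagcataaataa
Gbp5 (chr3:142496749-142496798, plus strand): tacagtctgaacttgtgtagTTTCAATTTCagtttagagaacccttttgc
Igtp (chr11:58199502-58199551, plus strand): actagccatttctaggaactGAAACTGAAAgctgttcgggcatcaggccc
B2m (chr2:122147528-122147577, plus strand): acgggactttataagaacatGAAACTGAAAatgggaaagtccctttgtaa
In the next pair the capitals mark the NF-kB form, which B2m also holds in lower case in its line above:
Gbp5 (chr3:142496837-142496886, plus strand): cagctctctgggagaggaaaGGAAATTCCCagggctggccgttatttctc
Nfkbia (chr12:55492648-55492696, minus strand): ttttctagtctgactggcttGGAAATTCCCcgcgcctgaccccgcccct

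The chemokine and NF-kB feedback genes described next rose in PB to levels that left no overlap with any other group. Cxcl10, a chemokine that draws T and NK cells through CXCR3 (mm9 chromosome 5, 92775664 to 92777915, minus strand), was at 2132 and 2096 CPM in the labelled LPS-primed PB samples and 869.9 and 1252 CPM in the batch 6 plates. It was at 12.7 and 19.7 CPM in the labelled PBS-primed PB samples (5.68 and 4.5 in batch 6). In BM it was at 0.287 and 2.15 CPM in the labelled PBS-primed BM samples (2.88, 0.198 and 4.08 in batch 6) and at 1.16 and 0.851 CPM in the labelled LPS-primed BM samples (3.73 in batch 6). LPS-primed PB plates stood alone, and in BM the groups overlapped near the lower end. The rise in PB was 8.17 (adjusted p = 0.000199), the effect in BM -0.09 (adjusted p = 1) and the difference 8.26 (SE 1.33, adjusted p = 0.00436), under 0.05 in 29 of 29 alternatives.

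The rise of Cxcl10 was spread over most cells. After thinning every cell to 5000 UMIs, 58.1% to 71.4% of cells of the LPS-primed PB plates held a Cxcl10 UMI, against 2.38% to 9.3% of the PBS-primed PB, 0% to 5.62% of the PBS-primed BM and 1.09% to 3.41% of the LPS-primed BM plates. Without thinning the shares were 96.5% to 100%, 22.6% to 43%, 2.2% to 24.7% and 6.52% to 28.4%. No cell type that lacks the gene was at hand for a background share.

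Of 18 tested NF-kB subunits and feedback regulators 7 rose in PB and 1 in BM, and Nfkbia, Ier3 and Tnip1 differed (list median 0.80, or -0.25 with scaling by the total alone). Nfkbia encodes the inhibitor IκBα, which carries NF-kB out of the nucleus. It was at 2768 and 2176 CPM in the labelled LPS-primed PB samples (2787 and 2795 in batch 6) and at 428 and 438 CPM in the labelled PBS-primed PB samples (437 and 335 in batch 6). The BM values were 258 and 258 CPM in the labelled PBS-primed BM samples (196, 233 and 257 in batch 6) and 313 and 344 CPM in the labelled LPS-primed BM samples (133 in batch 6). The LPS-primed PB plates were the highest by a wide gap, and the BM groups overlapped. The difference was 3.78 (SE 0.33, adjusted p = 2.98e-10). Ier3, an early response gene of cell survival, differed by 2.37 (SE 0.51, adjusted p = 0.00393), and Tnip1, which with A20 restrains NF-kB, by 3.0 (SE 0.78, adjusted p = 0.0249). Ier3 was also higher with LPS in BM, at 33.6 to 58.8 CPM in PBS-primed and 75.5 to 198 CPM in LPS-primed plates. Its effect in BM was 1.31 (adjusted p = 0.0985). The difference of Ier3 was 3.87 in batch 6 alone and 1.11 (adjusted p = 0.33) in the labelled samples alone.

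The cytokine list (21 tested, 6 up and 1 down in PB, none called by edgeR in BM, where DESeq2 called 2 and 4 passed 0.05 before adjustment) was called for Cxcl10 and Il1rn. Il1rn, the secreted antagonist of the IL-1 receptor, was at 2242 to 3048 CPM in LPS-primed PB plates, 315 to 497 CPM in PBS-primed PB, 209 to 362 CPM in PBS-primed BM and 167 to 354 CPM in LPS-primed BM plates, a difference of 3.80 (SE 0.35, adjusted p = 7.07e-10). Il1r2, the decoy receptor for IL-1, was likewise at 1717 to 2454 CPM in LPS-primed PB and at 147 to 489 CPM in all other plates, a difference of 3.19 (SE 0.41, adjusted p = 3.96e-06). Il18bp, which binds and blocks IL-18, differed by 5.32 (SE 0.72, adjusted p = 3.38e-06).

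LPS sensors and adaptors (17 tested, 7 up and 1 down in PB, none called by edgeR, DESeq2 or limma-voom in BM, where 3 had an unadjusted p under 0.05) were called above 0 for Irak3, Irak2 and Tlr2, with a list median of 0.58, or -0.49 with scaling by the total alone. Irak3, a pseudokinase that holds back TLR signalling, was at 8.02 to 105 CPM in PBS-primed PB and 286 to 404 CPM in LPS-primed PB plates. It was at 27.4 to 83 CPM in PBS-primed BM and 17.8 to 38.2 CPM in LPS-primed BM plates, and differed by 5.27 (SE 0.74, adjusted p = 2.8e-05). Irak2, a kinase that sustains the signal, differed by 3.45 (SE 0.85, adjusted p = 0.0134). Tlr2, the receptor of bacterial lipoproteins, differed by 2.20 (SE 0.62, adjusted p = 0.0489) and kept its call in 7 of 29 alternatives (adjusted p 0.0101 to 0.441).

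Secondary and tertiary granule genes had the largest share of called members of any list. Of 20 tested members 16 rose in PB, 15 were called for the difference and all 20 differences lay above 0. In BM Lyz2 fell and no member rose. The median effect was 2.75 in PB and -0.05 in BM, and the median difference 2.36. The called members were Lcn2, Cybb, Mmp8, Lyz2, Cd177, Ngp, Camp, Ltf, Ltb4r1, Mmp25, Pglyrp1, Chil3, Itgam, Hp and Anxa1. Scaling by the total alone left 9 calls above and 2 below 0. Unlike the chemokine genes, many of these were as high or higher in BM, so the contrast sets a rise in PB from a low level against BM groups that were high with and without LPS.

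Ltf, the iron-binding lactoferrin (mm9 chromosome 9, 110921796 to 110945270), was at 4.96 and 8.95 CPM in the labelled PBS-primed PB samples (119.9 and 79 in batch 6) and at 1409 and 2038 CPM in the labelled LPS-primed PB samples (5251 and 4692 in batch 6). It was at 8118 and 10590.5 CPM in the labelled PBS-primed BM samples (12315, 10516 and 11702 in batch 6) and at 7950.3 and 10091 CPM in the labelled LPS-primed BM samples (7975 in batch 6). Each LPS-primed PB plate exceeded each PBS-primed PB plate, all BM plates exceeded both, and batch 6 read higher than the labelled samples in both PB groups. The difference was 7.33 (SE 1.01, adjusted p = 0.00132), the effect 7.30 in PB and -0.03 in BM.

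Ngp and Camp, which lie with Ltf on chromosome 9 (mm9, Ngp 110322254 to 110325514, Camp 109749889 to 109751970), had the same order of groups. Ngp, a cystatin-like granule protein, was at 61.3 to 452 CPM in PBS-primed PB and 8306 to 23890.5 CPM in LPS-primed PB plates. It was at 18569 to 34411 CPM in PBS-primed BM and 19639 to 25216 CPM in LPS-primed BM plates, a difference of 7.11 (SE 0.70, adjusted p = 7.43e-05). Camp, the antimicrobial cathelicidin, was at 34.3 to 242 CPM, 3480.1 to 7425 CPM, 13974 to 22399 CPM and 12693 to 16811 CPM in the same order, a difference of 6.93 (SE 0.72, adjusted p = 0.000113). Chil3, a chitinase-like lectin of neutrophils, differed by 7.26 (SE 1.34, adjusted p = 0.0108). The share of cells with an Ngp UMI after thinning was 10% to 78.4% in PBS-primed and 95.3% to 100% in LPS-primed PB plates, and 50% to 100% and 98.8% to 100% unthinned, with 97.6% to 100% in BM.

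Lcn2, the siderophore-binding lipocalin (mm9 chromosome 2, 32240153 to 32243317, minus strand), gave the smallest p of all genes. It was at 1209 and 1223 CPM in the labelled PBS-primed PB samples (1638 and 1869.8 in batch 6) and at 18291 and 20848 CPM in the labelled LPS-primed PB samples (38827 and 27935 in batch 6). Its BM values were 10324 and 14525 CPM in the labelled PBS-primed BM samples (12662, 20664 and 15969.7 in batch 6) and 12158 and 12844 CPM in the labelled LPS-primed BM samples (18707 in batch 6). LPS-primed PB plates moved from the bottom into and above the BM range, and the BM groups overlapped. The difference was 5.11 (SE 0.27, adjusted p = 3.61e-16). Cybb, the catalytic subunit of the NADPH oxidase stored in these granules, differed by 4.56 (SE 0.33, adjusted p = 2.66e-12), and Mmp8, neutrophil collagenase, by 3.21 (SE 0.27, adjusted p = 1.32e-10).

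For the most abundant granule genes 1 alternative ended the call: limma-voom, which models log values with weights, gave adjusted p = 0.292 for Ltf, 0.376 for Camp, 0.819 for Ngp and 0.826 for Lcn2 in the same direction. These 4 genes were under 0.05 in the other 28 of 29 alternatives, with lowest values of 1.08e-39, 3.13e-37, 2.73e-42 and 5e-49.

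**Figure D2:**
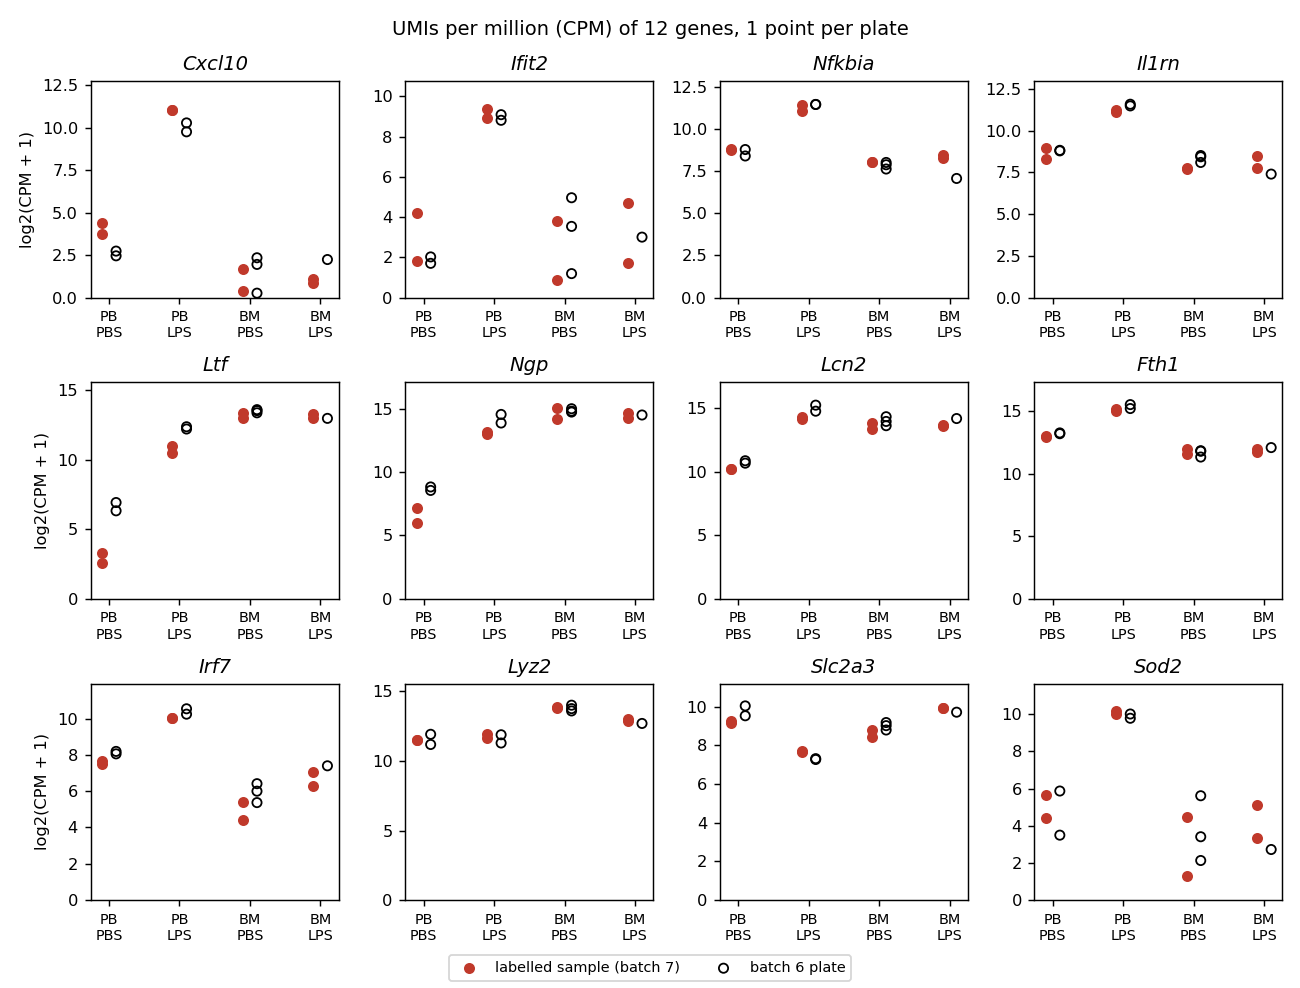
Levels of 12 genes as log2(CPM + 1), 1 point per plate, in the 4 groups; filled red points are labelled samples of batch 7 and open points are batch 6 plates. Cxcl10, Ifit2, Nfkbia, Il1rn, Fth1 and Sod2 are high in LPS-primed PB plates alone, Ltf and Ngp are low in PBS-primed PB plates alone, Lyz2 is highest in PBS-primed BM plates, and Slc2a3 is lowest in LPS-primed PB plates.

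The list of azurophil granule genes, which are made earliest in the marrow, gave 2 calls among 8 tested members. They were Serpinb1a, an inhibitor of neutrophil serine proteases, with a difference of 3.69 (SE 0.47, adjusted p = 2.52e-06), and Ctsb, a lysosomal cysteine protease, with 1.51 (SE 0.39, adjusted p = 0.0217). Mpo, Elane, Prtn3 and Ctsg, the main azurophil granule genes of the list, were not among the calls. The list median was -0.13, beside -0.15 for all genes. None of 11 C/EBP and other maturation factors was called for the difference by edgeR (median -0.73, 3 at an unadjusted p under 0.05, 1 each by DESeq2 and limma-voom), and 2 rose and 1 fell in PB.

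Most class I antigen presentation and immunoproteasome genes rose in PB without a call in BM. Of 17 tested members 10 rose in PB, none was called in BM by edgeR, DESeq2 or limma-voom (1 at an unadjusted p under 0.05), and 9 were called for the difference, all above 0: Psme1, Psme2, Psmb8, Psmb9, Psmb10, B2m, H2-K1, Tap1 and Tapbp (list median 2.04). These are the proteasome activator, the inducible catalytic subunits, the light and a heavy chain, and a chain of the peptide transporter with its tether. Scaling by the total alone left 2 calls above 0 and none below.

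Psme2, a subunit of the proteasome activator, was at 87.4 to 207 CPM in PBS-primed PB and 659 to 873 CPM in LPS-primed PB plates. It was at 88 to 153 CPM in PBS-primed BM and 104 to 171 CPM in LPS-primed BM plates, a difference of 3.58 (SE 0.43, adjusted p = 3.62e-07). Psmb8 was at 544 to 664 CPM in LPS-primed PB, 171 to 334 CPM in PBS-primed PB and 64.5 to 115 CPM in BM plates, a difference of 2.46 (SE 0.41, adjusted p = 0.000107). B2m, the class I light chain, was at 3676 to 6199 CPM in PBS-primed and 5900.4 to 8109 CPM in LPS-primed PB plates, which overlapped, and at 1731 to 3037 CPM in BM plates, with a difference of 1.83 (SE 0.28, adjusted p = 2.33e-05). The difference of B2m was 0.93 in batch 6 alone and 2.75 in the labelled samples alone. With scaling by the total alone it was 0.76 (adjusted p = 0.0627).

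Genes that handle iron and peroxide differed as well. Of 25 antioxidant genes 8 rose in PB and none fell, Txnip fell in BM, and Fth1, Prdx5, Mgst1, Txn1, Txnip and Prdx6 were called above 0 (list median 0.61, or -0.51 with scaling by the total alone). Of this list 3 members were called above 0 without the cells rich in markers of other types, and limma-voom called 3. Fth1, the ferritin heavy chain that stores iron, was at 7777 and 8303 CPM in the labelled PBS-primed PB samples (9336 and 9758 in batch 6) and at 35887 and 33264 CPM in the labelled LPS-primed PB samples (46798 and 37610.3 in batch 6). In BM it was at 3944 and 3101 CPM in the labelled PBS-primed BM samples (2565, 3646 and 3534 in batch 6) and at 3986 and 3473 CPM in the labelled LPS-primed BM samples (4331 in batch 6). PB was above BM in either state, LPS-primed PB above all, and the difference was 2.95 (SE 0.23, adjusted p = 3.01e-11, but 0.965 with limma-voom). Prdx5, a mitochondrial and peroxisomal peroxiredoxin, differed by 2.88 (SE 0.30, adjusted p = 1.97e-08), and Mgst1, a membrane glutathione transferase, by 1.90 (SE 0.40, adjusted p = 0.00341).

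Sod2, the mitochondrial superoxide dismutase that the study follows (mm9 chromosome 17, 13200705 to 13210985), did not pass for the difference. It was at 1013 and 1133 CPM in the labelled LPS-primed PB samples (1031 and 879 in batch 6) and at 20.2 and 49.1 CPM in the labelled PBS-primed PB samples (10.3 and 57.4 in batch 6). The BM values were 1.43 and 20.9 CPM in the labelled PBS-primed BM samples (3.38, 9.61 and 48 in batch 6) and 9.02 and 33.2 CPM in the labelled LPS-primed BM samples (5.59 in batch 6). The LPS-primed PB plates stood well apart and the BM plates varied among themselves more than between groups. Sod2 rose in PB by 5.80 (SE 1.15, adjusted p = 0.0064), the effect in BM was -0.21 (adjusted p = 1) and the difference 6.02 (SE 1.56, adjusted p = 0.0601), under 0.05 in 6 of 29 alternatives (0.00135 to 0.381). After thinning, 67.4% to 88.4% of cells in LPS-primed PB plates held a Sod2 UMI, against 3.33% to 12.8% in PBS-primed PB and 0% to 6.74% in BM plates.

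Of 7 NADPH oxidase genes, whose products make superoxide, Cybb, Cyba, Ncf4 and Rac2 were called above 0 (5 up and 1 down in PB, none called in BM by edgeR, DESeq2 or limma-voom and none at an unadjusted p under 0.05, list median 1.05, or -0.03 with scaling by the total alone). The partner subunit Cyba was at 1115 to 1769 CPM in PBS-primed and 1237 to 2139 CPM in LPS-primed PB plates, which overlapped, for a difference of 1.28 (SE 0.31, adjusted p = 0.0119), or 0.22 (adjusted p = 0.666) with scaling by the total alone. Rac2, the GTPase of the complex, differed by 1.05 (SE 0.28, adjusted p = 0.0233), a difference that was -0.03 with scaling by the total alone.

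Receptors, clotting and survival genes gave a few calls each. Of 18 migration and adhesion receptors 8 rose and 2 fell in PB, 1 rose in BM, and the formyl peptide receptors Fpr2 (2.01, SE 0.35, adjusted p = 0.000169) and Fpr1 (1.79, SE 0.42, adjusted p = 0.00954) differed above 0. Scaling by the total alone gave none above and 6 below 0. Fpr2 was at 210 to 484 CPM in PBS-primed PB and 980 to 1404 CPM in LPS-primed PB plates. It was at 633 to 1065 CPM in PBS-primed BM and 1190.5 to 1272 CPM in LPS-primed BM plates. The only tetraspanin called among 13 was Cd53, at 0.99 (SE 0.27, adjusted p = 0.0341) and -0.07 with scaling by the total alone.

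Among 15 coagulation and fibrinolysis genes Plaur, Plek and Thbs1 were called above and F13a1 below 0. Plaur, the urokinase receptor that focuses plasmin at the cell surface, was at 128 to 289 CPM in PBS-primed PB and 256 to 368 CPM in LPS-primed PB plates. It was at 524 to 738 CPM in PBS-primed BM and 372 to 512 CPM in LPS-primed BM plates, with a difference of 2.19 (SE 0.38, adjusted p = 0.000173). Thbs1, thrombospondin, was at 1385 to 2406 CPM in LPS-primed PB plates, 9.92 to 235 CPM in PBS-primed PB and 134 to 723 CPM in BM plates, a difference of 6.02 (SE 1.26, adjusted p = 0.0231).

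Of 23 survival and apoptosis genes Bcl2a1a, Fas, Casp1 and Pycard were called above 0, with 9 up and 1 down in PB, 1 up in BM and a list median of 1.50, or 1.26 with genes at the floor set to their bound. Bcl2a1a, a Bcl-2 relative that delays neutrophil death, was at 63.2 to 164 CPM in LPS-primed PB, 0.617 to 67 CPM in PBS-primed PB, 0.12 to 10.9 CPM in PBS-primed BM and 0 to 0.658 CPM in LPS-primed BM plates, so that the PB groups touched. Its difference of 7.99 (SE 1.64, adjusted p = 0.00287) is uncertain, since the gene has near-identical copies whose part in its counts was not tested. Fas, the death receptor, differed by 2.31 (SE 0.57, adjusted p = 0.013), and Pycard, the inflammasome adaptor, by 3.04 (SE 0.74, adjusted p = 0.013). In a plate of the group where Pycard is highest, 58.8% of its UMIs lay in 2 cells.

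Fmnl2, a formin that extends actin filaments (mm9 chromosome 2, 52716894 to 52993236), had the largest difference among the named genes that have a fold. It was at 0.397 and 3.7 CPM in the labelled PBS-primed PB samples (1.53 and 2.25 in batch 6) and at 266 and 187 CPM in the labelled LPS-primed PB samples (204 and 267 in batch 6). Its BM values were 149 and 5.38 CPM in the labelled PBS-primed BM samples (102, 33.7 and 49.5 in batch 6) and 45.7 and 36.8 CPM in the labelled LPS-primed BM samples (48.7 in batch 6). The PB groups were far apart and the PBS-primed BM plates scattered widely around the LPS-primed ones. The difference was 8.58 (SE 1.16, adjusted p = 0.000124).

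Lyz2, the myeloid lysozyme (mm9 chromosome 10, 116714390 to 116719377, minus strand), was the one gene called in both tissues in opposite directions. It was at 14094 and 15349 CPM in the labelled PBS-primed BM samples (12411, 16525 and 13924 in batch 6) and at 7335 and 8121 CPM in the labelled LPS-primed BM samples (6653 in batch 6). It was at 2872 and 2864 CPM in the labelled PBS-primed PB samples (2331 and 3875 in batch 6) and at 3262 and 3937 CPM in the labelled LPS-primed PB samples (3786 and 2511 in batch 6). The BM groups did not overlap, whereas the PB groups did. Lyz2 fell by 1.11 in BM (adjusted p = 0.00168), the effect in PB was 1.12 (adjusted p = 2.39e-05), or 0.17 with scaling by the total alone, and the difference was 2.23 (SE 0.27, adjusted p = 3.28e-07), under 0.05 in 29 of 29 alternatives.

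Among the genes called for the difference, those that fell in BM without a call in PB were Tsc22d3, Txnip and Ccl9. Tsc22d3, the glucocorticoid-induced leucine zipper, was at 255, 133 and 160.1 CPM in the batch 6 and 325 and 168 CPM in the labelled PBS-primed BM plates, and at 49.9 and 25 CPM in the labelled LPS-primed BM samples (89.5 in batch 6). In PB it was at 680.2 and 534 CPM in the labelled PBS-primed samples (1354 and 1061 in batch 6) and at 434 and 390.5 CPM in the labelled LPS-primed samples (247 and 426 in batch 6). LPS-primed plates were the lower in both tissues. The effect was -2.03 in BM (adjusted p = 0.0031) and -0.26 in PB (adjusted p = 0.701, -1.22 with scaling by the total alone), and the difference 1.77 (SE 0.48, adjusted p = 0.0335; 0.000202 to 0.97 over alternatives), being 0.28 in batch 6 alone and 3.25 in the labelled samples alone. Txnip, which binds thioredoxin, differed by 1.38 (SE 0.39, adjusted p = 0.0435; 0.0176 to 0.713 over alternatives). It was at 1264 to 2488 CPM in PBS-primed PB and 531 to 1160 CPM in LPS-primed PB plates, and at 371 to 843 and 122 to 314 CPM in BM, with no overlap in either tissue. With scaling by the total alone Txnip was called lower in PB too (-1.21, adjusted p = 0.00552) and its difference was 0.31. Ccl9, a chemokine, had 3 UMIs in the LPS-primed BM group and 9.42 to 43.9 CPM in PBS-primed BM plates (adjusted p = 0.0146), with 90.8% of its UMIs in 2 cells in a plate.

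Of the genes called for the difference, the one that rose in BM alone was D730005E14Rik, listed at 0 to 0.125 CPM in PBS-primed and 12.1 to 29.3 CPM in LPS-primed BM plates, and at 0 to 80.2 and 14.6 to 53.3 CPM in PB (adjusted p = 0.0438). In a plate of LPS-primed PB, the group where it is highest, 85.3% of its UMIs lay in 2 cells. Like Irf7, 2 genes that rose in both tissues and more in PB were Oas2 (difference 1.90, SE 0.49, adjusted p = 0.0213) and Qsox1 (3.57, SE 0.81, adjusted p = 0.00675), singled out after their values were seen. With scaling by the total alone the differences of Oas2 and Qsox1 were 0.81 (adjusted p = 0.341) and 2.45 (adjusted p = 0.07), so that a larger rise in PB was not called for either. Qsox1, a sulfhydryl oxidase, was at 3.56 to 6.55 CPM in PBS-primed PB and 79.5 to 257 CPM in LPS-primed PB plates. It was at 1.86 to 36.7 CPM in PBS-primed BM and 95.8 to 116 CPM in LPS-primed BM plates, with no overlap in either tissue.

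Genes below 0 were fewer and less secure. Of the 76, 60 were highest in the PBS-primed PB group and 12 in the LPS-primed BM group, 40 had at most 3 UMIs in some group, and in 63 at least 50% of the UMIs of some plate of the highest group lay in 2 cells (49 of the 258 above 0). The PBS-primed PB plates also carried more RNA of T and NK cells, platelets and B cells. Their summed T and NK cell markers were at 349 to 1447 CPM, against at most 46.1 CPM elsewhere, with Ncr1 and Klrb1c at 0 in LPS-primed PB. Platelet markers were at 463 to 3917 CPM against at most 170 CPM, and B cell markers at 80.5 to 202 CPM against at most 102 CPM. Summed markers of monocytes, macrophages and dendritic cells overlapped between PBS-primed and LPS-primed PB plates (1117 to 1823 and 1117 to 1583 CPM) and were at 698 to 1188 CPM in BM. That sum includes Ly6c2, itself called above 0. Ly6c2 was at 84.8 to 193 CPM in PBS-primed PB, 640 to 1370 CPM in LPS-primed PB and 627 to 1065 CPM in BM plates. The overlap of the sum therefore does not show that the other members of this list were alike in the 2 PB groups. Hepatocyte markers were at 62.9 to 3196 and 152 to 1279 CPM in the PB groups and at most 126 CPM in BM. With the 52 cells left out in which such markers passed 1% of UMIs, 47 of the 76 and 218 of the 258 kept their call. Of the 76, Ccr2, Irf8, Gimap6 and Ms4a4b are markers of monocytes, dendritic cells or T cells, and Irf8 (adjusted p = 0.0169) had 0.229 without those cells. F13a1, a clotting factor subunit of monocytes and platelets, was listed at 0 in LPS-primed PB plates and at 0 to 63.1 CPM in PBS-primed PB plates (adjusted p = 0.0205, 0.0896 without those cells). In BM it was at 0 to 5.59 CPM in PBS-primed plates, at 47.3 CPM in the labelled LPS-primed sample 1 and at 0 in the other LPS-primed plates. Of the 42 of these genes that could be tested without their 2 highest cells per plate, 24 stayed called.

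Slc2a3, the high-affinity glucose transporter GLUT3 (mm9 chromosome 6, 122677827 to 122751658, minus strand), was the most secure of these. It was at 575 and 616 CPM in the labelled PBS-primed PB samples (1052 and 738 in batch 6) and at 211 and 203 CPM in the labelled LPS-primed PB samples (153 and 158 in batch 6). In BM it was at 343 and 442 CPM in the labelled PBS-primed BM samples (518, 579 and 443 in batch 6) and at 982 and 989 CPM in the labelled LPS-primed BM samples (839 in batch 6). LPS-primed plates were all lower in PB and all higher in BM, with no overlap in either tissue. Slc2a3 fell by 1.05 in PB (adjusted p = 0.00143), the effect in BM was 0.93 (adjusted p = 0.0712), and the difference was -1.99 (SE 0.33, adjusted p = 8.87e-05), under 0.05 in 29 of 29 alternatives and in each batch alone. Of 21 glycolysis genes it was the single member called below 0, and Gapdh the single member called above 0 (1.60, SE 0.43, adjusted p = 0.0284).

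The remaining named genes below 0 that have a fold fell in PB without a call in BM. Sirpa, the inhibitory receptor for CD47, was at 469 to 556 CPM in PBS-primed PB and 26 to 150 CPM in LPS-primed PB plates. It was at 192 to 459 CPM in PBS-primed BM and 353 to 406 CPM in LPS-primed BM plates, a difference of -1.97 (SE 0.43, adjusted p = 0.0046). Akt1, a kinase of growth and survival signalling, was at 169 to 377, 17.6 to 38.4, 56 to 198 and 108 to 192 CPM in that order, a difference of -2.24 (SE 0.56, adjusted p = 0.0148). In both genes the LPS-primed PB plates lay under every plate of all other groups. Atg7, an enzyme of autophagosome formation, differed by -2.08 (SE 0.61, adjusted p = 0.0455; 0.00104 to 0.476 over alternatives) and Fry by -4.22 (SE 1.18, adjusted p = 0.0348). The values for Ankrd11, Tbc1d15, Tgfbi, Retreg1 and Kctd12 ran from -1.96 to -1.69, with adjusted p from 0.0265 to 0.0498. Tbc1d15, Tgfbi and Retreg1 were under 0.05 in 11, 10 and 11 of 29 alternatives. All 10 named genes kept their call without the cells rich in markers of other types. In the labelled samples alone Slc2a3 was the only one of the 10 called, and the other adjusted p ran from 0.101 to 0.556.

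Several lists held few or no calls. None of 84 ribosomal protein genes and none of 81 nuclear respiratory chain genes was called for the difference in the edgeR fit (medians -0.36 and 0.01, the latter -0.03 with floor genes at their bound), with 6 and 3 falls in PB. At an unadjusted p under 0.05 there were 10 and 7, DESeq2 called 1 of each and limma-voom 2 and 1. Scaling by the total alone called 26 ribosomal protein genes below 0. Among 24 glucocorticoid targets and immediate early genes Tsc22d3 and Il1r2 were called, with a median of -0.07.

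**Figure D3:**
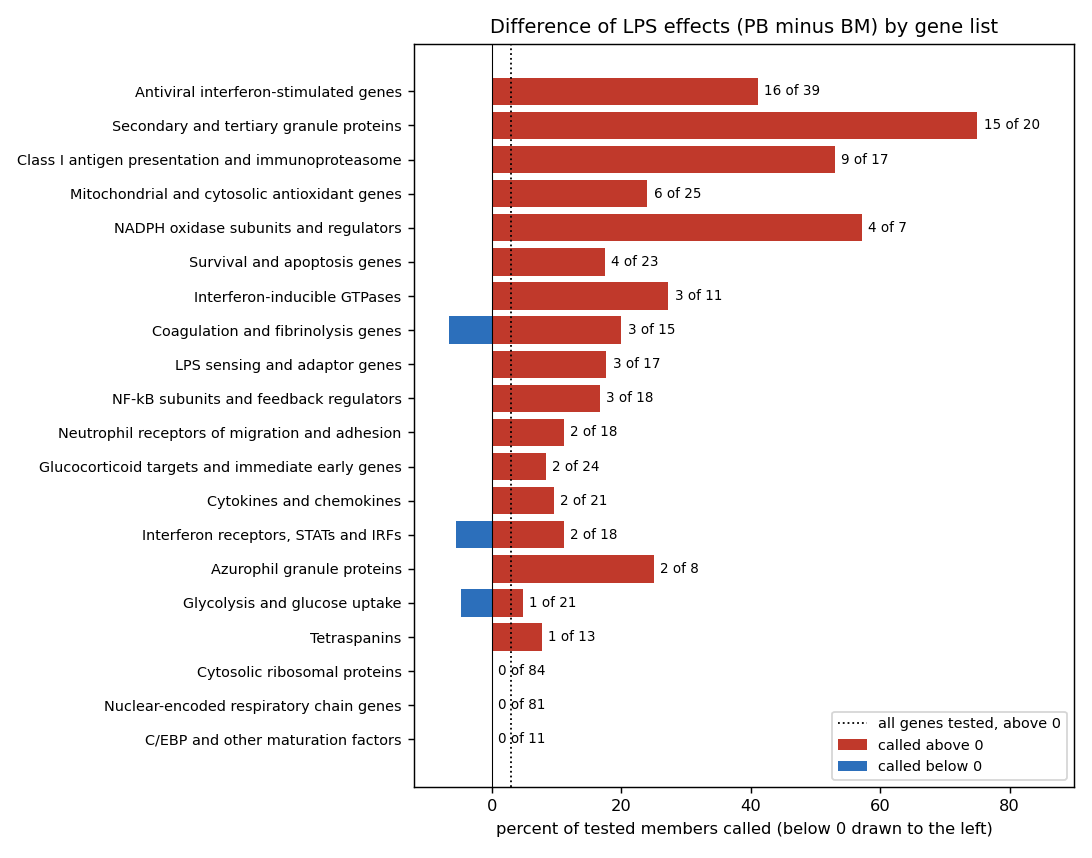
Share of tested members called for the difference of LPS effects (horizontal axis, percent) in 20 gene lists, above 0 to the right in red and below 0 to the left in blue; the text gives members called above 0 of those tested and the dotted line is the 2.92% of all genes. The granule list has the largest share (15 of 20) and the antiviral list the most calls (16 of 39), and ribosomal protein, respiratory chain and C/EBP genes have none.

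The batches share no plates and gave the same direction almost throughout. Of the genes called above 0, 257 could be fitted in batch 6 alone and in the labelled samples alone, and 257 had the same sign in both; of those below 0 this held for 62 of 63. Each batch contributed to the joint fit, so this describes the agreement of its parts. Batch 6 alone called 190 genes above 0 and the labelled samples 169, with 81 in common (42.6% and 47.9%). Below 0 they called 78 and 9, with Slc2a3 alone in common (1.28% and 11.1%).

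**Figure D4:**
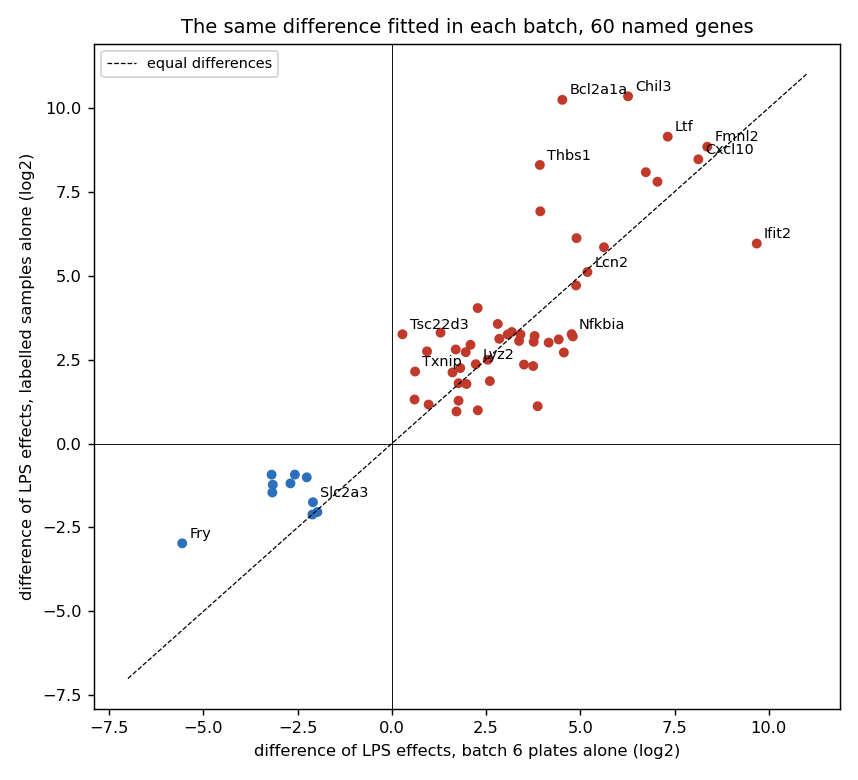
Difference of LPS effects (log2) for 60 named genes fitted in the batch 6 plates alone (horizontal axis) and in the labelled samples alone (vertical axis), 1 point per gene, red above 0 and blue below 0 in the joint fit. The 50 genes above 0 lie in the upper right and the 10 below 0 in the lower left, which the choice of the genes largely fixes because both batches entered the call and part of the naming rule asked for one sign in both; Tsc22d3 is near 0 in batch 6 (0.28) and at 3.25 in the labelled samples.

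Some calls of named genes rested on the scaling or the tool. With scaling by the total alone 21 kept their direction and lost the call, namely Irak2, Tlr2, Ier3, Tnip1, Irf7, Igtp, Gbp2, B2m, Ctsb, Fpr1, Fpr2, Mgst1, Cyba, Plaur, Pycard, Fas, Tsc22d3, Gapdh, Txnip, Oas2 and Qsox1. With limma-voom 16 did so, namely Bcl2a1a, Ltf, Chil3, Ngp, Camp, Atg7, Retreg1, Irak2, Tnip1, Igtp, Lcn2, Fth1, Rac2, Tsc22d3, Txnip and Qsox1.

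Wfdc17 and Lilr4b were followed by name and were not called for the difference. Wfdc17, a secreted inhibitor of the whey acidic protein family, was at 1282 to 3194 CPM in PBS-primed PB and 1444 to 2961 CPM in LPS-primed PB plates. It was at 22.8 to 631 CPM in PBS-primed BM and 659 to 1457 CPM in LPS-primed BM plates. The BM groups did not overlap and the PB groups did, and the difference was -1.44 (SE 1.07, adjusted p = 0.591; 0.000279 to 0.805 over alternatives, the lowest in the labelled samples alone). Lilr4b, an immunoglobulin-like receptor, rose by 1.21 in PB (adjusted p = 2.31e-05) and by 1.60 in BM (adjusted p = 7.04e-06), and the difference was -0.39 (SE 0.28, adjusted p = 0.543), or -1.44 with scaling by the total alone.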

How the data were processed

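SCRB-seq UMI counts per gene and cell were deposited as 1 table of 1421 cells, with the cell's plate as the start of its name. Per the study's methods the authors trimmed reads with cutadapt (version 1.15), aligned them to mm9 with STAR (2.6.0a), removed duplicates by UMI, counted with HTSeq (0.11.2) and filtered cells by genes, UMIs and spike-ins; the gene annotation is not given in the sources used here. Strand use in counting is not stated. Doublets were not called, cells having been picked singly. Here UMIs were summed per plate (3240559 to 12020616), the parts of a PBS-primed BM plate of batch 6 being joined; these parts share 42 barcode names, 2 of them most alike their namesake. Genes in at least 10 cells that passed filterByExpr were tested with edgeR 4.0.16 (R 4.3.3) by robust quasi-likelihood on TMM-scaled sums, with group and batch as terms (residual df 11), two-sided, and p-values were adjusted by Benjamini-Hochberg over all 8845 genes; a gene was called at 0.05. The fit was also run on simulated plate sums with a known set of changed genes. Its groups differed in those genes alone, so the run was not a test of the choice of scaling. A group with at most 3 UMIs of a gene in all counts as at the floor and gives no fold. The batch 6 plates match no label and are given as single values, with no mean ± SD.

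Named genes are the 12 highest and 10 lowest called differences with a mean of at least 50 CPM in the highest group, one sign in both batches and under 50% of UMIs in 2 cells, the 3 lowest p of each list, the genes called in PB and BM in opposite directions, up to 6 called in BM and not in PB, and Sod2, Wfdc17 and Lilr4b. The comparison, rule and 20 lists were chosen with earlier results of these data known. Alternatives were scaling by library size, DESeq2 1.42.0, limma 3.58.1, other filters, batches alone, fewer cells, thinning to 5000 UMIs and each plate left out. Correlations of same-numbered samples' deviations ran from -0.023 to 0.007. Values near 0 do not settle whether the numbers pair samples, which is not stated.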

Additional observations from a re-analysis of the deposited data

Results flagged for a closer look

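The LPS effect differed between PB and BM in 334 genes by the test of the difference itself. The genes chosen by the naming rule that passed this test, with Oas2 and Qsox1, which were chosen after their values were seen, are listed here with its difference on the log2 scale, PB minus BM. Interferon genes were Ifitm3 (3.24), Ifitm6 (3.37), Cmpk2 (3.16), Ifit2 (7.70), Oas2 (1.90), Usp18 (3.33), Irf7 (1.88), Gbp2 (4.78) and Igtp (2.23). Chemokine, cytokine inhibitor and LPS signalling genes were Cxcl10 (8.26), Nfkbia (3.78), Il1rn (3.80), Il1r2 (3.19), Il18bp (5.32), Ier3 (2.37), Tnip1 (3.0), Irak3 (5.27), Irak2 (3.45) and Tlr2 (2.20). Granule and protease genes were Lcn2 (5.11), Cybb (4.56), Mmp8 (3.21), Ltf (7.33), Ngp (7.11), Camp (6.93), Chil3 (7.26), Lyz2 (2.23), Serpinb1a (3.69) and Ctsb (1.51), and class I genes were Psme2 (3.58), Psmb8 (2.46) and B2m (1.83). Genes of iron, peroxide and superoxide were Fth1 (2.95), Prdx5 (2.88), Mgst1 (1.90), Txnip (1.38), Cyba (1.28) and Rac2 (1.05). Other genes above 0 were Fmnl2 (8.58), Bcl2a1a (7.99), Pycard (3.04), Fas (2.31), Thbs1 (6.02), Plaur (2.19), Cd53 (0.99), Fpr2 (2.01), Fpr1 (1.79), Gapdh (1.60), Tsc22d3 (1.77) and Qsox1 (3.57). Genes below 0 were Fry (-4.22), Akt1 (-2.24), Atg7 (-2.08), Slc2a3 (-1.99), Sirpa (-1.97), Ankrd11 (-1.96), Tbc1d15 (-1.90), Tgfbi (-1.84), Retreg1 (-1.80) and Kctd12 (-1.69). For genes with at most 3 UMIs in some group the adjusted p by edgeR stands in place of a fold: Gbp5 (0.0119), Ccl9 (0.0146), Irf8 (0.0169), F13a1 (0.0205) and D730005E14Rik (0.0438).

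In groups of 4 or 5 plates, the highest or lowest plate stood far from the others (a Dixon gap test at 95%) for 14 of 204 gene and group combinations, where chance alone gives about 1 in 20. In PBS-primed PB these were Ifit2 in the labelled sample 1 (17.5 CPM), Il18bp in the labelled sample 1 (32.3 CPM) and, among batch 6 plates, Nfkbia (335 CPM) and Atg7 (58.5 CPM) in the second plate and Retreg1 in the first (562 CPM). In LPS-primed PB they were Nfkbia in the labelled sample 2 (2180 CPM to 3 digits) and Irf8 in the second batch 6 plate (2.15 CPM). In PBS-primed BM they were, in the labelled sample 1, Tlr2 (269 CPM), Cmpk2 (185 CPM) and F13a1 (5.59 CPM), in the first batch 6 plate Cyba (2440 CPM to 3 digits), and in the third batch 6 plate Ankrd11 (192 CPM), Psmb8 (64.5 CPM) and Irf8 (0.233 CPM). Leaving out any single plate turned the direction of no named gene that has a fold.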

How the results depend on the processing

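The 334 calls for the difference became 640 (104 above, 536 below 0) with scaling by library size alone, 670 with DESeq2, 178 in the labelled samples only, 207 with batch 6 as 1 sum per group and 214 with cells thinned to equal UMIs, and leaving out 1 plate at a time gave 188 to 315, the lowest without LPS-primed BM replicate 1. The 923 calls in PB became 1687, 1604 and 436 under the first 3 of these. The 35 calls in BM became 56 with library size alone, 214 with DESeq2, 94 with limma-voom and 60 without the 2 highest cells per gene and plate (an alternative chosen after seeing the data), and 20 to 45 with a plate left out, 20 without the batch 6 plate of LPS-primed BM and 45 without a batch 6 plate of PBS-primed PB. With the replicate block, whose numbers may or may not pair samples, 283 genes were called (239 above and 44 below 0). With library size alone the differences of Rac2 (-0.028) and Cd53 (-0.066) turned below 0; the whole median moved by construction of the scaling, and the cause of the other shifts was not tested. Of 60 named genes with a fold, 18 were under 0.05 in all 29 alternatives, 40 in at least 24 and 8 in fewer than 15, these being Ifit2, Tlr2, Gbp2, Txnip, Atg7, Tbc1d15, Tgfbi and Retreg1. Over all named genes and alternatives 1489 values kept direction and side of the threshold, 328 kept direction and lost the call, 8 gained it and 2 turned. Low UMI numbers limit genes below 0: 40 of 76 had at most 3 UMIs in some group.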

Other observations

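Some LPS responses were called in both tissues without a called difference. Of 29 genes that rose in BM, 24 also rose in PB, and for 20 of these the difference was not called, the PB effect being the larger in 13. They were chosen after their values were seen. Il4ra, the IL-4 receptor chain, was at 94.9 to 208 CPM in PBS-primed and 345 to 474 CPM in LPS-primed PB plates and at 25.8 to 55.3 and 177 to 330 CPM in BM. It rose by 2.33 in PB and 2.65 in BM, with a difference of -0.32 (SE 0.44, adjusted p = 0.814). With scaling by the total alone its difference was -1.44 (adjusted p = 0.0496) and so called below 0. Fbxl5, Lilr4b and Sbno2, of the same 20 genes, were also called below 0 with that scaling. Casp4, the sensor of intracellular LPS, was at 87 to 228 and 387 to 654 CPM in PB and at 16.8 to 63.6 and 163 to 248 CPM in BM, with a difference of 0.80 (SE 0.47, adjusted p = 0.425). Csf2rb, the shared receptor chain for GM-CSF, differed by 0.24 (SE 0.33, adjusted p = 0.817). A difference that was not called is not evidence of equal effects. For Casp4 the standard error leaves room for a difference of the size called for Cd53 (0.99). All adjusted p here are from edgeR.

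Genes outside the lists that were called in each batch alone, likewise chosen after their values were seen, held 45 of 82 genes. Plac8 was at 70 to 290 CPM in PBS-primed PB, 2909 to 3586 CPM in LPS-primed PB and 105 to 329 CPM in BM plates, a difference of 4.19. Upp1, uridine phosphorylase, was at 8.73 to 27.4 CPM in PBS-primed PB, 302 to 590 CPM in LPS-primed PB and 10.5 to 64.1 CPM in BM plates, a difference of 4.85. Hdc, which makes histamine, was at 538 to 1036 and 2309.8 to 3125 CPM in PB and at 374 to 671 and 605 to 862 CPM in BM, a difference of 2.55. C3, the central complement protein, was at 64.5 to 172 and 556 to 1080 CPM in PB and at 249.9 to 370 and 267 to 380 CPM in BM, a difference of 3.47. In all 4 genes the LPS-primed PB plates stood above every other plate.

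Ffar2, a receptor of short-chain fatty acids, was at 0 to 1.13 CPM in PBS-primed PB, 43.5 to 72.9 CPM in LPS-primed PB, 30.1 to 69.2 CPM in PBS-primed BM and 39.7 to 109 CPM in LPS-primed BM plates, the arrangement seen in Ltf and Ngp. In a plate of LPS-primed BM, the group where Ffar2 is highest, 55.2% of its UMIs lay in 2 cells. The alarmins S100a8 and S100a9 differed by 2.11 and 2.30, with S100a8 at 65083 to 100587 CPM in PBS-primed PB plates and 134991 to 191269 CPM in all others.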
